A study of Homo sapiens with 2 samples.

Results

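ANXA4, CD24 and SPP1 are 3 genes whose products mark bile duct cells or liver progenitor cells, and they were described in HepG2 cells, a human hepatoma line, after knockdown of the noncoding transcript TUC338. The members were all probe sets annotated to 1 of these symbols alone, which gave 13 probe sets for ANXA4, 7 for CD24 and 10 for SPP1, or 30 of the 45200 probe sets in the deposited table and 3 of its 2792 genes. No probe set that carried several symbols named any of the 3. Cells grown on collagen were transfected with locked nucleic acid (LNA), a modified oligonucleotide, directed at TUC338, or with control LNA, and total RNA was measured with a whole-transcript array kit. There was 1 array for the TUC338 knockdown and 1 array for the control, so every difference compares 2 arrays, has no replicate check and was given no test. Per the design text, loss of TUC338 was tested by experiment. The level of TUC338 itself on these arrays was not analysed here.

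ANXA4 encodes annexin A4, which binds phospholipid membranes in the presence of calcium and is abundant in epithelia that line ducts. CD24 is a small, heavily glycosylated protein held at the cell surface by a lipid anchor, and it is used to mark progenitor cells and cancer cells with progenitor features in the liver. SPP1 encodes osteopontin, a secreted phosphoprotein that binds integrins and CD44. In the healthy liver osteopontin is made mainly by bile duct cells. Hepatocytes and bile duct cells both arise from a common fetal progenitor, and Notch signalling and the Hippo pathway, which restrains the co-activator YAP, take part in the choice between the fates.

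The label could be checked only in part. The defining biliary markers KRT7, KRT19, EPCAM, SOX9 and CFTR were not analysed here, so a biliary state of the cells could not be checked. Of 6 progenitor and oncofetal markers 1, GPC3, was measured, and of 6 hepatocyte markers 2, ALB and APOB, were. These 3 markers were bright on both arrays. GPC3 averaged a log2 intensity of 12.45 in the knockdown and 12.31 in the control, ALB 12.55 and 12.35, and APOB 12.66 and 12.41, each over its probe sets. The defining endothelial and leukocyte markers were not in the deposited table either. That table covers 2792 genes, so a gene missing from it may still have been expressed in the cells. Ranks, shares and counts of measured genes below refer to the genes of this table only.

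The knockdown array was the brighter of the 2, with a median intensity of 507 against 422 on the control array. The median gene was 0.28 higher in the knockdown on the log2 scale, or 1.22-fold, taking the mean over each gene's probe sets. Differences below are knockdown minus control on the log2 scale. They are given as deposited or after this 0.28 was subtracted, which is called relative to the median gene. A ± after a mean is the SD over the probe sets of the gene, which shows how far its probe sets differed between the same 2 arrays and is not a replicate error. Gene means were compared over the 2742 genes with at least 4 probe sets, and the SD of these means across genes was 0.30.

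The 250 bases upstream of 1 annotated start of each gene are shown because the genes share their use as markers, while their proximal promoters differ in composition. They come from RefSeq on GRCh38.p14, which lists 2 starts for ANXA4, 3 for CD24 and 1 for SPP1, and the outermost listed start was taken. Capitals mark matches to 5 short motifs on either strand. The motifs were picked after the sequences had been read.
ANXA4, chr2:69643558-69643807, plus strand: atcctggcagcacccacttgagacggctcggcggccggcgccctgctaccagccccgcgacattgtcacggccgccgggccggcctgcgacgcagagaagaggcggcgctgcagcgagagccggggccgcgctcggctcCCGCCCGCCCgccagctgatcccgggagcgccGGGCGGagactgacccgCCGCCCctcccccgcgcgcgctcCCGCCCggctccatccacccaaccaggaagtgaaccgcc
CD24, chr6:106975628-106975877, minus strand: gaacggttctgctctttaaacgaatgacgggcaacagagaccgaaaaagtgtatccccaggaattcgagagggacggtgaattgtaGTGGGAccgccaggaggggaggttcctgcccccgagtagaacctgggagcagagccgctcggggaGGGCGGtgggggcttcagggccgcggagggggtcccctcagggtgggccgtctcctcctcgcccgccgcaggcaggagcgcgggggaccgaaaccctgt
SPP1, chr4:87975464-87975713, plus strand: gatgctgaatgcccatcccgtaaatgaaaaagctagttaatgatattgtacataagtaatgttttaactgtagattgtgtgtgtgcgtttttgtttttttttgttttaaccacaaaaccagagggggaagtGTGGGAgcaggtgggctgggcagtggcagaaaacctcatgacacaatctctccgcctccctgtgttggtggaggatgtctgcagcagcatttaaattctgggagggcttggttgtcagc
The ANXA4 window was 77.2% G or C with 36 CG dinucleotides. That of CD24 was 65.6% with 20, and that of SPP1 was 44.8% with 3. The median over 35116 windows of this length was 58.0% with 11. ANXA4 held 5 matches to the GC box GGGCGG, 1 on the plus strand and 4 on the minus strand, of which the pair that begins 111 and 107 bases before the start overlaps. CD24 held 1 match to it, and 42.6% of all windows held at least 1. The RBPJ core GTGGGA, searched because RBPJ is the DNA-binding partner of Notch, was found in CD24 and SPP1 and in 19.4% of windows. The TATA box TATAAA (10.7% of windows), the ETS core CCGGAA (14.5%) and the TEAD core GGAATG (11.9%) had no match in the 3 windows. These are matches of letters only.

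ANXA4 was lower in the knockdown at 12 of its 13 probe sets in deposited values, and at all 13 relative to the median gene. Averaged over probe sets, log2 intensity came to 9.74 in the knockdown and 10.64 in the control. The deposited difference was -0.90 ± 0.38, which is 53.5% of the control level, and 16.6% of all genes had a deposited mean under 0. Relative to the median gene it was -1.19, or 2.28-fold lower. Of 2742 genes, 3 including ANXA4 had a mean this low or lower, the others being CCND2 (-1.46 ± 0.30 over 7 probe sets) and IGKV1-5 (-1.45 ± 0.52 over 4). CCND2 averaged a log2 intensity of 7.38 in the knockdown and 8.56 in the control, and IGKV1-5 averaged 7.85 and 9.01.

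The probe sets of ANXA4 are given in the order of their numbers in the table. Whether this order follows the transcript is not known here. The first 4 had intensities of 893, 707, 1009 and 1042 on the knockdown array, against 1809, 1142, 1988 and 1982 on the control array. The next 4 had 1154, 1502, 4784 and 723 on the knockdown array, against 2389, 3003, 6744 and 1681 on the control array. In each of these 8 the knockdown was the lower. The last 5 had 3388, 811, 409, 80.5 and 359 on the knockdown array, against 5873, 2188, 1047, 78.1 and 639 on the control array. The single probe set without a lower value, the twelfth in order, was also the dimmest of the gene, brighter than only 0.042% of all probe sets in the table. All the others lay in the brighter part of the table, from the 51.6th percentile of brightness upwards.

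**Figure D1:**
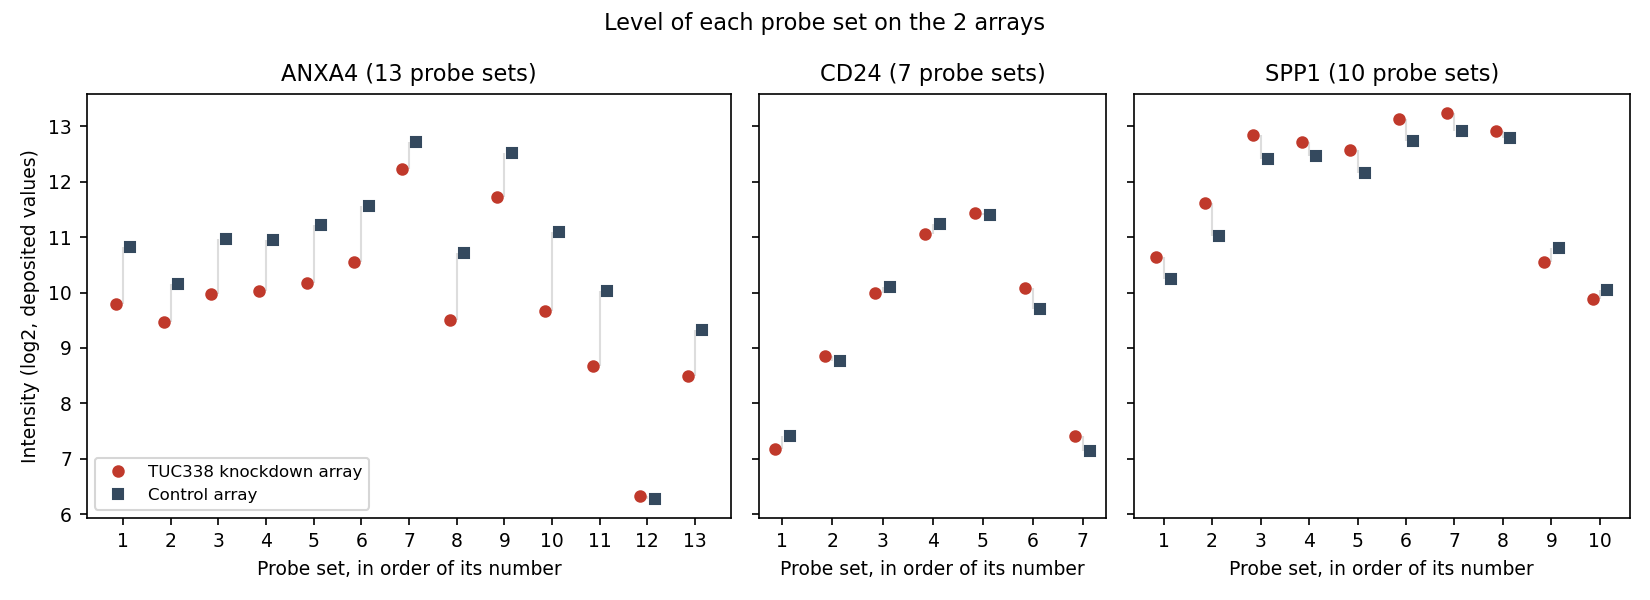
Log2 intensity of every probe set of ANXA4, CD24 and SPP1 (y axis) in order of probe set number (x axis), with the TUC338 knockdown array as circles and the control array as squares, 1 array each. In the deposited values drawn here the control is higher at 12 of 13 ANXA4 probe sets. The knockdown is higher at 4 of 7 CD24 and 8 of 10 SPP1 probe sets, by up to 0.38 and 0.60. The offset between the arrays is part of these counts. Of all single-symbol probe sets, 75.2% are higher in the knockdown, and the median gene is 0.28 higher.

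The size of the difference varied between the ANXA4 probe sets. The most different probe set, the tenth in order, was -1.72 relative to the median gene (3.29-fold lower), and the eleventh was -1.64 (3.12-fold). The brightest, the seventh, was -0.78 (1.72-fold lower), and the second brightest, the ninth, was -1.08. Without these 2 and the dimmest, the remaining 10 probe sets had a mean of -1.33 relative to the median gene and ranged from -1.72 to -0.98. Brighter probe sets over the whole table also spread less, with an SD of the difference of 0.17 in the brightest 1% of probe sets, against 0.42 in those below median brightness. The part of brightness in the smaller values of ANXA4 was not tested. Taken at its brightest probe set alone, with the median gene taken at the brightest probe set too, ANXA4 was at -0.69, and 125 of 2742 genes were as low or lower.

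Of the 13 ANXA4 probe sets, 12 lay 1.5-fold or more under the median gene, against a background of 8.19% of all single-symbol probe sets, and 10 lay 2-fold or more under it, against 1.13%. None of the CD24 and SPP1 probe sets was 1.5-fold lower, or 1.5-fold higher, where the background was 6.15%. Across gene means, 3.57% of genes were 1.5-fold or more below the median gene and 0.365% were 2-fold or more below it, and ANXA4 was in both groups. By the first fold 98 genes were lower and 63 higher, a split that turned to 25 lower and 359 higher in deposited values, where ANXA4 was still among the lower genes. Every probe set lay below the median gene in 9.01% of genes, ANXA4 among them.

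CD24 lay near the control level in deposited values, while 6 of its 7 probe sets lay below the median gene. Over 7 probe sets, log2 intensity averaged 9.43 in the knockdown and 9.39 in the control. The deposited difference was 0.04 ± 0.23, which is 103% of control, and it turned to -0.25 relative to the median gene, which is 84.3%. Its direction therefore depended on the offset between the arrays. By this mean, 520 of 2742 genes were as low or lower.

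The first 4 CD24 probe sets by number had intensities of 145, 465, 1022 and 2138 on the knockdown array, against 171, 436, 1101 and 2406 on the control array. The last 3 had 2771, 1081 and 170.0 on the knockdown array, against 2701, 829.8 and 142 on the control array. In deposited values 4 of the 7, among them all of the last 3, were higher in the knockdown, against 75.2% of single-symbol probe sets. The first 4 averaged -0.10 and the last 3 averaged 0.23, so the probe sets of the gene differed among themselves by more than its mean differed from 0. The largest difference was 0.38 at the sixth probe set. The first and the last probe sets were dim, at the 6.39th and 6.10th percentiles of brightness. RefSeq lists 5 CD24 pseudogenes. Cross-hybridisation of the CD24 probe sets with their transcripts was not analysed here, so the CD24 values are uncertain in this respect.

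**Figure D2:**
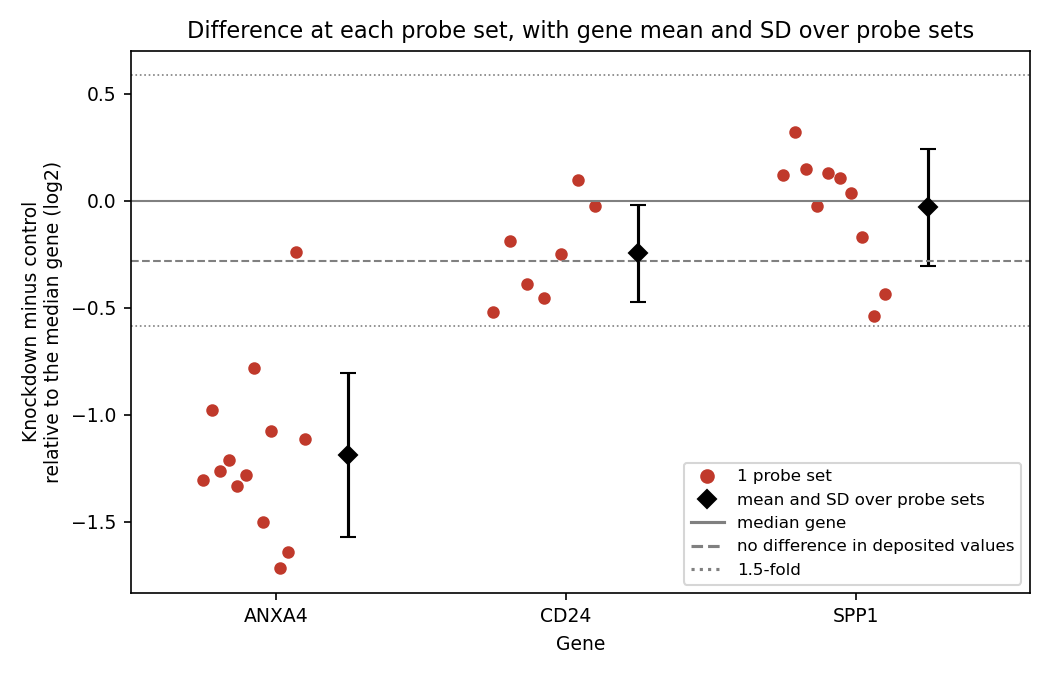
Knockdown minus control (log2, relative to the median gene, y axis) at each probe set of the 3 genes (circles, left to right by probe set number), with the mean and SD over probe sets (diamonds and bars). All ANXA4 probe sets except the dimmest lie below the lower 1.5-fold line, at -0.78 or less, and no CD24 or SPP1 probe set does.

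SPP1 was bright on both arrays, with 5 of its probe sets in the brightest 1% of the table. Brightness also reflects the probes, so levels were not ranked between the genes. Over 10 probe sets, log2 intensity averaged 12.01 in the knockdown and 11.76 in the control. The deposited difference was 0.25 ± 0.27, which is 119% of control, and relative to the median gene it was -0.03. SPP1 thus shifted by about as much as the median gene, whose deposited shift was 0.28. By this mean, 1230 of 2742 genes were as low or lower.

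The first 5 SPP1 probe sets by number had intensities of 1594, 3147, 7309, 6724 and 6097 on the knockdown array, against 1207, 2071, 5425, 5615 and 4572 on the control array. The last 5 had 8931, 9666, 7652, 1492 and 949 on the knockdown array, against 6812, 7744, 7078, 1779 and 1056 on the control array. The first 8 were higher in the knockdown and the last 2 lower, in deposited values. The first 8 had a mean of 0.37 ± 0.14 (0.08 relative to the median gene) and the last 2 had -0.25 and -0.15 (-0.54 and -0.44 relative to the median gene). On the control array the tenth was the dimmest of the gene, and the ninth was brighter than only the first and the tenth. The highest value was 0.60 at the second probe set. In all, 13 of the 30 probe sets of the 3 genes were higher in the knockdown as deposited, against 75.2% of single-symbol probe sets, and 7 were above the median gene, against 47.9%. The 13 of ANXA4 supplied 1 of the first count and 0 of the second.

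**Figure D3:**
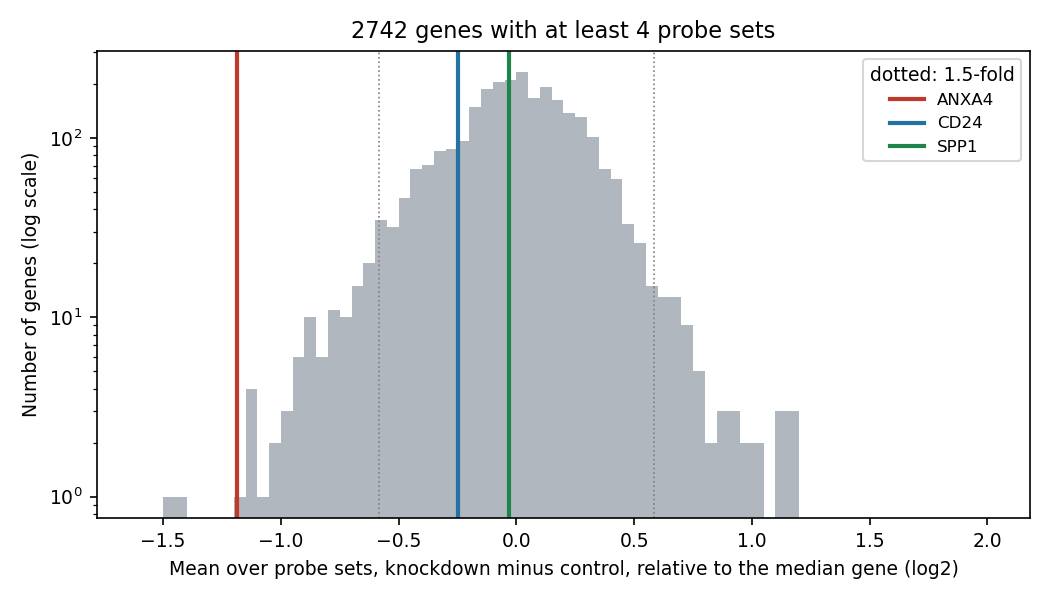
Number of genes (log scale, y axis) by mean difference over probe sets, knockdown minus control relative to the median gene (log2, x axis), for 2742 genes with at least 4 probe sets. The line for ANXA4 at -1.19 stands at the low end, and those for CD24 at -0.25 and SPP1 at -0.03 stand within the bulk.

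The mean difference of ANXA4 minus that of CD24 was -0.94, and minus that of SPP1 it was -1.16, log2 values in which the offset cancels. With 2 arrays, other genes could be set beside the 3 only by the distance between their mean log2 intensities on the 2 arrays. This distance also reflects how bright the probes are, so it is a description of these values and not of abundance. Nearest to ANXA4 was IGF2R at a distance of 0.14, with 9.68 in the knockdown and 10.52 in the control. PCBP2, the host gene of TUC338, was next at 0.37, with 10.10 and 10.71. Relative to the median gene, IGF2R was at -1.13 ± 0.27 over 52 probe sets and PCBP2 at -0.89 ± 0.35 over 13. The distance uses both arrays, so near genes also have similar differences. CTPS1 and VARS1 were each 0.027 from CD24. ITIH2 at 0.093 and BOLA2 at 0.12 were nearest to SPP1.

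Of 35 genes in the biliary list, 7 were in the table, and 6 had at least 4 probe sets. Besides the 3 members these were KRT23, a keratin, SLC12A2, the basolateral sodium, potassium and chloride cotransporter, and DCDC2, a doublecortin-domain protein of bile duct cells. KRT23 averaged 11.95 in the knockdown and 11.43 in the control, 0.24 ± 0.14 above the median gene. SLC12A2 was at 0.27 ± 0.37 and DCDC2 at 0.03 ± 0.23, and DCDC2 turned below 0 at its brightest probe set. None of these 3 was 1.5-fold higher, where the background was 2.30% of genes, or lower. Of the 6 measured genes, 1, ANXA4, was at least 1.5-fold lower, beside 3.57% of all genes. The list median was -0.0026 beside 0.0020 over all genes. Both figures include the 3 members, which were chosen with earlier results known. Without them the list median was 0.24, with 3 genes above the median gene and 0 below. GGT1, a gamma-glutamyltransferase, had only 2 probe sets and was left out of these counts. It was below the median gene at both, with a mean of -0.72 ± 0.24, or 1.65-fold.

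In the progenitor and oncofetal list 7 of 33 genes were measured with at least 4 probe sets, CD24 and SPP1 among them. All 7 means lay below the median gene, beside 1363 of all 2742 genes, and 0 were 1.5-fold lower or higher. The list median was -0.25, and it was also -0.25 without CD24 and SPP1. SPP1, at -0.03, turned above 0 under several alternative settings, so its place among the 7 is not settled. The surface peptidase ANPEP was at -0.48 ± 0.16, lower at all 23 probe sets relative to the median gene, with 9.37 in the knockdown and 9.57 in the control. The chromatin protein HMGA2 was at -0.44 ± 0.26 over 4 probe sets. PROX1, a homeobox factor of the fetal liver, was at -0.25 ± 0.34 and the oncofetal proteoglycan GPC3 at -0.14 ± 0.15. IGF2BP2 was at -0.17 ± 0.20. In deposited values PROX1, GPC3 and IGF2BP2 were 0.03, 0.14 and 0.12 higher in the knockdown, so their direction rested on the offset. PROX1 also turned above 0 at its brightest probe set. Of the 5 genes other than CD24 and SPP1, 3 were higher as deposited, as were 83.4% of all genes.

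Of 33 hepatocyte identity genes 6 were measured, 3 above and 3 below the median gene, and 0 reached 1.5-fold. The list median was -0.015. The bile acid enzyme CYP27A1 was at 0.29 ± 0.12, above the median gene at all 10 probe sets, and fibrinogen gamma FGG was at 0.27 ± 0.29. The urea cycle enzyme CPS1 was at -0.42 ± 0.32. ALB was at -0.08 ± 0.17, and in deposited values it was 0.20 higher in the knockdown.

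Among annexins and their partners 4 of 18 genes were measured. ANXA3, another annexin, was below the median gene at all 9 probe sets, with a mean of -0.51 ± 0.25 and log2 intensities of 9.09 in the knockdown and 9.32 in the control. ANXA9 was at -0.21 ± 0.30 and 0.07 higher as deposited, and its direction also turned at its brightest probe set. The copine CPNE1, a calcium-dependent membrane-binding protein of another family, was at 0.03 ± 0.13. ANXA4 was the only 1 of the 4 past 1.5-fold. In the family of secreted phosphoproteins to which SPP1 belongs (IBSP, DMP1, DSPP and MEPE), SPP1 was the only gene measured here.

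The genes that bind or cleave osteopontin or signal from its receptors gave 5 measured of 23, of which 3 were at least 1.5-fold lower, beside 3.57% of all genes, and the list median was -0.67. The integrin subunit ITGAV, part of osteopontin receptors, averaged 11.45 in the knockdown and 10.76 in the control, 0.41 ± 0.30 above the median gene. The focal adhesion adaptor PXN was below it at all 16 probe sets (-0.67 ± 0.27), although its deposited mean of -0.39 did not reach that fold. The matrix metalloproteinases MMP3 (-1.05 ± 0.44 over 7 probe sets) and MMP2 (-0.96 ± 0.17 over 4) were lower too. Both were dim, with mean log2 intensities of 6.94 and 6.80 in the knockdown and 7.71 and 7.48 in the control. Of 16 CD24 ligands and signalling partners 1 was measured, the adhesion molecule L1CAM. It was at -0.67 ± 0.22 and below the median gene at all 17 probe sets. Its deposited mean of -0.39, with 8.03 in the knockdown and 8.42 in the control, did not reach 1.5-fold.

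For the signalling pathways of biliary fate, 14 of 39 Notch and Hippo-YAP genes were measured. Of these 9 lay above and 5 below the median gene, with 1 of them 1.5-fold or more higher, beside 2.30% of all genes, and 1 lower by that fold, beside 3.57%, and the list median was 0.10. TEAD2, a DNA-binding partner of YAP, averaged 7.90 in the knockdown and 8.74 in the control. Its mean of -1.13 ± 0.29 over 9 probe sets came next after ANXA4 among all genes from the low end. AJUBA, a LIM protein that restrains the Hippo kinases, averaged 10.94 in the knockdown and 9.85 in the control, 0.81 ± 0.25 above the median gene, with all 12 probe sets above it. ANKRD1, a known YAP target, was at 0.52 ± 0.34, with 11 of 12 probe sets above the median gene. The Hippo kinases LATS2 and LATS1 lay above it too, at 0.48 ± 0.26 and 0.32 ± 0.32. The receptors NOTCH1 and NOTCH2 lay below it, at -0.52 ± 0.15 and -0.37 ± 0.21. The activity of either pathway was not tested.

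**Figure D4:**
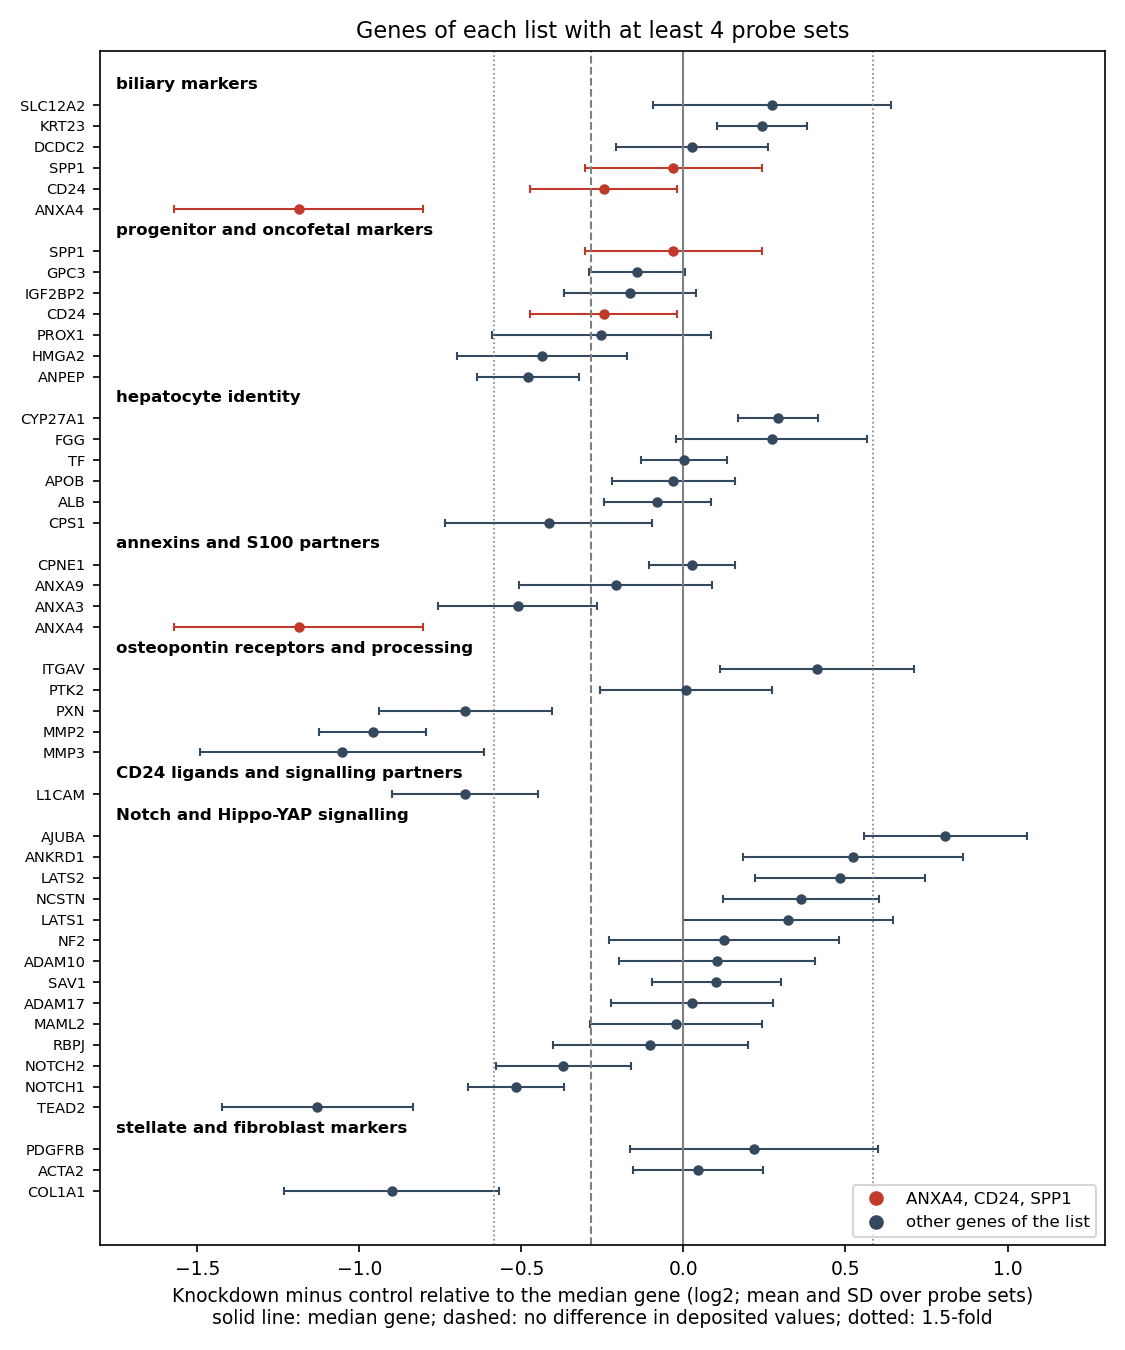
Mean difference with SD over probe sets (log2, relative to the median gene, x axis) for each gene with at least 4 probe sets in 8 lists (y axis), with ANXA4, CD24 and SPP1 in red. ANXA4 at -1.19 is the lowest of all genes shown, followed by TEAD2 at -1.13, and AJUBA at 0.81 is the highest.

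Markers of other liver cells were scarce in the table. Of 11 stellate cell and fibroblast genes 3 were measured. COL1A1, a chain of type I collagen, was at -0.90 ± 0.33 and dim, with 7.89 in the knockdown and 8.51 in the control. ACTA2, smooth muscle actin, was at 0.05 ± 0.20 and PDGFRB at 0.22 ± 0.38, with PDGFRB below 0 at its brightest probe set. The endothelial and the leukocyte list had 0 of 11 and 0 of 13 genes in the table. The RNA came from a culture of the HepG2 line, and any part of other cells in the ANXA4 difference was not tested. In RNA from a whole culture, fewer cells with a transcript and less of it per cell cannot be told apart.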

How the data were processed

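Expression was compared between 1 knockdown array and 1 control array, grouped by the transfection label. The authors deposited 1 value per probe set and array. Normalization, summary method, software and build: not given in the sources used here. Deposited values were read as natural log intensities, because their exponentials under 2000 piled up on 1 residue modulo 0.5 (1154 knockdown and 1167 control values in the fullest bin, against means of 82.7 and 84.2 per bin), and were converted to log2. Probe sets with 1 symbol (42575 of 45200) were assigned to genes; 331 older symbols were updated through RefSeq (GRCh38.p14). Gene values are means over probe sets. The median of all gene differences (0.28) was subtracted where stated. Counts used genes with at least 4 probe sets and a fold of 1.5.

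With 1 array per condition no test was made. Gene lists, the members and their rules were chosen with earlier results of these data known. The genes named were the members, up to 3 genes per list with the largest difference, a few defining markers and the 2 nearest genes per member. CCND2 and IGKV1-5, which ranked below ANXA4, and GGT1, APOB and the genes of partner lists without a value were named after the values were seen. So were IGF2BP2, LATS1, LATS2, NOTCH1, NOTCH2, NCSTN, ADAM10, ADAM17, RBPJ and MAML2. The number of arrays limits the precision. The procedure was tested on simulated data, with independent noise at each probe set. The simulation held no variation between cultures, so it cannot show how far such variation moves the gene means. Alternatives covered the offset, quantile and lowess normalization, the gene summary, dim probe sets and the log base. Python 3.11.15, pandas 2.3.3 and statsmodels 0.14.6 were used.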

Additional observations from a re-analysis of the deposited data

How the results depend on the processing

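All values here are log2 differences relative to the median gene unless said otherwise. Of 46 values recomputed under alternative settings, 36 moved by less than the SD over probe sets or, for counts, stayed within 1.5 times. A changed offset moves all genes by 1 constant, and the limit is wider where probe sets differ more. The count of 36 is therefore no measure of reliability. No replicate is left to leave out, and no paired analysis was possible because there is 1 array per condition. ANXA4 stayed below 0 under all 9 alternatives, from -1.27 without its farthest probe set to -0.69 at its brightest probe set, the 1 that moved by more than its SD, and the cause was not tested. CD24 ranged from -0.30 to 0.037 and was above 0 only in deposited values. SPP1 ranged from -0.02 to 0.25, the highest again in deposited values. It was above 0 also with quantile normalization (0.011), lowess (0.016), the median over probe sets (0.07), the brightest probe set (0.12) and without its farthest probe set (0.02), so it has no settled direction. The 3 genes' count of 7 probe sets above the median gene became 13 in deposited values. Of all genes, 63 were at least 1.5-fold higher and 98 lower. In deposited values 359 were higher and 25 lower, at the brightest probe set 144 and 188, and with values read as log2 16 and 29, a reading that shrinks every difference by construction. The share of higher calls was therefore set by the offset. In the rank from the low end, ANXA4 had place 3 of 2742 genes with quantile normalization and with lowess, place 4 by medians, place 1 of 1791 without dim probe sets, and place 125 of 2742 at the brightest probe set. The spread between cultures was not measured.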
